A study of Mus musculus with 13 samples.

Results

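Mbp, Mag, Mog, Mobp, Cnp, Mal and Cldn11, 7 genes of oligodendrocytes and myelin, were followed in captures of mouse lumbar motoneurons. They were taken by name, through the Ensembl identifiers of the count tables and GENCODE mouse symbols, and they are 7 of 48709 gene rows. All 7 passed the filter on low counts, which kept 17403 genes for testing. The motoneurons were isolated by laser microdissection from stained cord sections, 500 cells pooled for each mouse, so a library stands for 1 mouse and p-values measure the spread between these mice.

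Myelin is the lipid-rich membrane that oligodendrocytes wrap around axons of the central nervous system, and Schwann cells build the corresponding sheath in peripheral nerve. Compact myelin is held together by basic and transmembrane proteins, while adhesion molecules, tight junction proteins and enzymes sit at its inner face, outer face and margins. Transcripts for several of these proteins travel out of the oligodendrocyte cell body into the processes that contact axons.

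Each of the 13 mice carried the SOD1-G93A transgene, a human SOD1 mutation that causes motoneuron disease, and each was 65 days old, so no healthy mouse enters any comparison. The AAV-miR SOD1 group (n = 4) had received, into the cerebral ventricles at postnatal day 2, an adeno-associated virus that makes an artificial microRNA against human SOD1 in astrocytes. The AAV-miR ctrl group (n = 5) had received the control vector at the same age, and the Non-injected group (n = 4) were littermates without any injection. Expression of the microRNA is described for astrocytes, and the labels do not name the promoter that drives it.

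Between 13897189 and 37414222 counts per library were assigned to genes. Alignments that were not unique made up 51.1 to 56.8% of the totals in AAV-miR SOD1, 44.6 to 53.8% in AAV-miR ctrl and 42.3 to 52.8% in Non-injected libraries. Levels are given in CPM, the usual unit that relates a gene's counts to its library's total, after trimmed-mean (TMM) scaling of library sizes, and 3 counts, taken as the detection floor, corresponded to 0.0802 to 0.216 CPM. All 10 motoneuron markers examined, Chat, Isl1 and Prph among them, had counts in all 13 libraries. The human transgene was not counted separately, and mouse Sod1 had a log2 fold change of -0.28 ± 0.25 (SE, edgeR adjusted p = 0.624) between AAV-miR SOD1 and AAV-miR ctrl. In the libraries labelled Non-injected replicate 3 and AAV-miR ctrl replicate 3, the column header contradicted the label. The labels were followed, and the counts of the 7 genes that passed a threshold are also given with both libraries exchanged or left out. Libraries numbered 5 or 6 were all controls and were the deepest of the series, so their number and the group cannot be told apart.

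RefSeq (GRCm38.p6) lists a start site for 6 of the 7 genes in the promoter table used here, in 8 windows of 250 bases that end at the start. These windows were searched on both strands for CTTTGT and its reverse complement ACAAAG, the core that SOX-family proteins such as the oligodendrocyte factor Sox10 recognise, a motif chosen after the sequences had been seen. The Mobp window held 6 copies, all in the CTTTGT orientation, and no other window among 32851 held as many. A single copy was found in the Cnp window and in 2 of the 3 Mag windows, and none in those of Mog, Mal and Cldn11. The 2 Mag windows overlap, and the copy in both is the same site. By comparison 16.5% of all windows held at least 1 copy and 1.74% held 2 or more. The sequences of Mobp, of the Mag window nearest its annotated start, of Cnp, and of Cldn11 as a window without the motif are shown with copies in capitals, 5′ to 3′ on the strand of the gene, and stop where the GENCODE gene begins. A match describes the letters only and was not tied to any measurement here.
Mobp promoter, chr9:120149492-120149706, plus strand: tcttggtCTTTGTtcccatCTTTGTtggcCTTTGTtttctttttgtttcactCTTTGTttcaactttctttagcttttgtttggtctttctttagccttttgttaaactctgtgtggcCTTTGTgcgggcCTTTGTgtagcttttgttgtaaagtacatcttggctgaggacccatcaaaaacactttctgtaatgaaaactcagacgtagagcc
Mag promoter, chr7:30914874-30915113, minus strand: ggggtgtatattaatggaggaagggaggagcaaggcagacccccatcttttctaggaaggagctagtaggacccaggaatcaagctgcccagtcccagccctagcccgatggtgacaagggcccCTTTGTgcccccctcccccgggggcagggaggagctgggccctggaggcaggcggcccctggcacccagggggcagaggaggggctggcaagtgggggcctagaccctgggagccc
Cnp promoter, chr11:100574689-100574903, plus strand: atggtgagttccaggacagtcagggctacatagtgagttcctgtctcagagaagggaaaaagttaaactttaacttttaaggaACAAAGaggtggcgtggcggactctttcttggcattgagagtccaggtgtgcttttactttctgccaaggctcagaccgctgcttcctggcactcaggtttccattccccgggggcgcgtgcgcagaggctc
Cldn11 promoter, chr3:31149670-31149919, plus strand: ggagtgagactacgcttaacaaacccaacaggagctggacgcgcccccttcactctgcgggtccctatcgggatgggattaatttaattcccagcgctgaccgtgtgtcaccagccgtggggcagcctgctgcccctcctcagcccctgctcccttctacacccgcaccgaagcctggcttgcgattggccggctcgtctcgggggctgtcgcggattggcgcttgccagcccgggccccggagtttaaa

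The 7 transcripts were measurable in all 13 libraries, and Mbp was among the most abundant transcripts of these motoneuron captures. Mbp averaged 1558 ± 701 CPM (SD, n = 13), which placed it at rank 56 among 17403 genes. Cnp was at rank 789 and Mobp at 894, followed by Mag (3792), Mal (3863), Mog (5628) and Cldn11 (8696). The smallest raw count of any of them in any library was 105, for Cldn11.

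Levels of different genes were compared per kilobase of annotated exon, because longer transcripts give more fragments. On this scale Mbp was at 184 ± 82.8 CPM per kb (SD, n = 13), above Cnp in 13 of 13 libraries. Cnp was at 54.7 ± 18.1 and exceeded Mobp, at 25.9 ± 14.1 CPM per kb, in all 13. Mobp was above Mog, at 17.6 ± 9.52 CPM per kb, in 11 of 13 libraries. Mog was above Mal, at 16.9 ± 5.99 CPM per kb, in only 7 of 13, so the order of these neighbours was not resolved. Mal was above Mag, at 11.8 ± 5.396 CPM per kb, in 12 of 13, and Mag was above Cldn11, at 7.50 ± 3.84 CPM per kb, in 13 of 13. Exon lengths are unions over annotated transcripts, which include the upstream exons of the longer Mbp transcription unit, so a level per kb may understate a gene whose short isoforms predominate. For scale, the motoneuron enzyme gene Chat ranged from 8.31 to 33.0 CPM per kb and lay below Mbp in 13 of 13 libraries, whereas the neurofilament gene Nefh, at 421 ± 164 CPM per kb, lay above Mbp in 12 of 13.

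**Figure D1:**
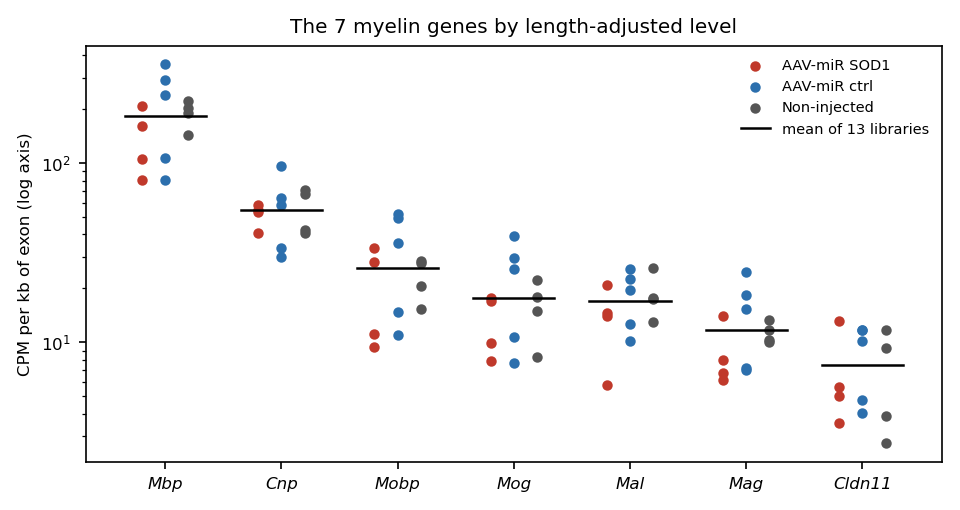
Level of each of the 7 myelin genes in CPM per kb of exon (log axis), 1 point per library coloured by group, with a line at the mean of 13 libraries. Mbp lies highest at a mean of 184 and Cldn11 lowest at 7.50, while Mog (17.6) and Mal (16.9) have close means and overlapping points.

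Mbp encodes myelin basic protein, which draws the cytoplasmic faces of compact myelin together. The AAV-miR SOD1 libraries, replicates 1 to 4, had 1373, 1763, 897 and 685 CPM. AAV-miR ctrl replicates 1, 3, 4, 5 and 6 had 2477, 2022, 3011, 681 and 904 CPM, and Non-injected replicates 2, 3, 5 and 6 had 1882, 1616, 1729 and 1209 CPM. The AAV-miR ctrl group thus held both the highest and the lowest value of the series, with replicates 1, 3 and 4 high and 5 and 6 low. The Non-injected libraries lay inside that range, and the AAV-miR SOD1 libraries overlapped both control groups.

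Mobp (GRCm38, chr9:120149707-120181484, plus strand) encodes another small basic protein of compact myelin. In the AAV-miR SOD1 group it was at 192, 229, 64.5 and 76.2 CPM. AAV-miR ctrl libraries had 356, 244, 339.6, 101 and 75.0 CPM in the order above, and Non-injected libraries had 142, 194, 189 and 105 CPM. Mobp spread most of the 7, 5.51-fold between AAV-miR ctrl replicate 1 and AAV-miR SOD1 replicate 3. Its AAV-miR SOD1 libraries fell into a higher pair, replicates 1 and 2, and a lower pair, and the 3 groups overlapped. The higher pair had mitochondrial shares of counts of 2.09 and 2.11%, the lower pair 3.18 and 3.19%. The part of this difference was not tested. Exons of Mobp share 79 bases with Gm38642 on the same strand, a gene not used here.

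Mal (chr2:127633226-127656695, minus strand) encodes a small membrane protein of lipid-rich domains in myelin. AAV-miR SOD1 libraries had 40.5, 58.2, 38.9 and 16.1 CPM, AAV-miR ctrl libraries 71.3, 54.3, 62.4, 28.3 and 35.4 CPM, and Non-injected libraries 72.2, 49.3, 48.3 and 35.9 CPM. AAV-miR SOD1 replicate 4 was the lowest library for Mal by a wide margin, and the groups overlapped otherwise as well.

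Mag (chr7:30899176-30914873, minus strand) encodes the adhesion molecule that faces the axon at the innermost myelin layer. It was at 32.5, 56.8, 25.3 and 27.6 CPM in AAV-miR SOD1, at 100.3, 62.5, 75.1, 28.6 and 29.2 CPM in AAV-miR ctrl, and at 41.1, 54.3, 47.8 and 41.9 CPM in Non-injected libraries. AAV-miR SOD1 replicate 2 lay above all Non-injected libraries while its other 3 replicates lay below them, and AAV-miR ctrl replicates 5 and 6 lay among the other AAV-miR SOD1 libraries.

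Mog (chr17:37010743-37023398, minus strand) encodes a glycoprotein of the outermost myelin surface that marks mature oligodendrocytes. AAV-miR SOD1 libraries had 28.8, 30.1, 16.9 and 13.5 CPM, AAV-miR ctrl libraries 66.5, 43.9, 50.6, 18.1 and 12.998 CPM, and Non-injected libraries 37.8, 30.4, 25.5 and 14.1 CPM. Each group contained libraries near the lowest level, and the 3 highest were AAV-miR ctrl replicates 1, 4 and 3.

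Cldn11 (chr3:31149920-31164324, plus strand) encodes the claudin of the tight junctions that seal the myelin spiral. It was at 10.6, 24.5, 9.38 and 6.64 CPM in AAV-miR SOD1, at 19.0, 21.9, 22.05, 8.91 and 7.51 CPM in AAV-miR ctrl, and at 17.4, 21.98, 7.27 and 5.10 CPM in Non-injected libraries. The highest library belonged to AAV-miR SOD1 and the lowest to Non-injected, and all 3 groups covered nearly the same range.

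Cnp (chr11:100574904-100591729, plus strand) encodes a phosphodiesterase of the cytoplasmic channels of non-compact myelin. AAV-miR SOD1 libraries had 212, 198, 148 and 194 CPM, AAV-miR ctrl libraries 352, 213, 233, 109 and 122 CPM, and Non-injected libraries 246, 153, 258 and 149 CPM. Cnp had the smallest spread of the 7, 3.23-fold from lowest to highest library, with the AAV-miR SOD1 libraries inside the range of AAV-miR ctrl and overlapping the Non-injected libraries. Exons of Cnp share 154 bases with Dnajc7 on the opposite strand, and the strand setting of the counting is not given in the sources used here, so the count of Cnp is uncertain to that extent.

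**Figure D2:**
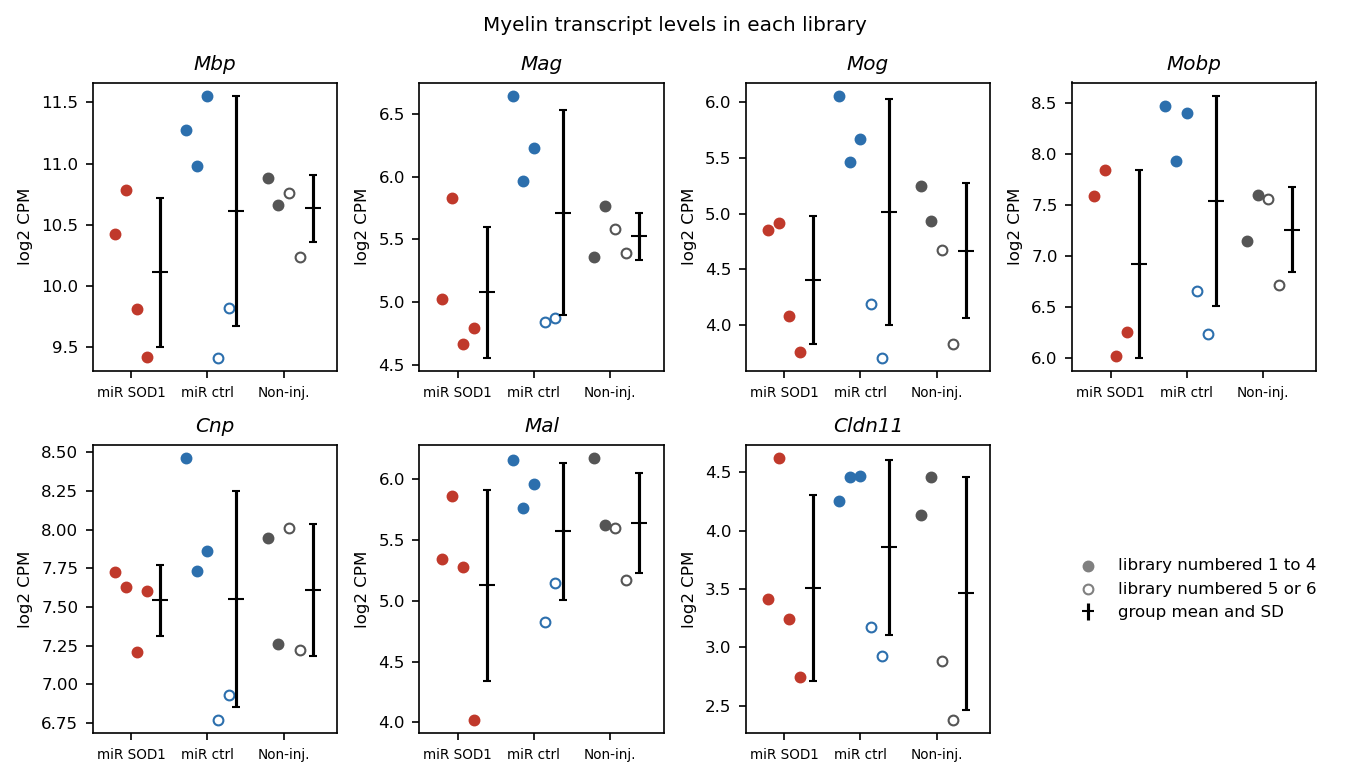
Log2 CPM of the 7 myelin genes by group, 1 point per library (filled, numbered 1 to 4; open, numbered 5 or 6), with the group mean and SD beside the points. The AAV-miR ctrl group splits into 3 higher and 2 lower libraries in all 7 panels, and the groups overlap throughout.

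Summed over the 7 genes, myelin transcripts made up 1617 ± 621 CPM (SD, n = 4) in AAV-miR SOD1, 2411 ± 1285 (SD, n = 5) in AAV-miR ctrl and 2105 ± 387 (SD, n = 4) in Non-injected libraries. Mbp contributed 74.5% of this sum on average, between 67.2% and 79.4%, and Cnp contributed 10.4%, between 6.13% and 19.1%. AAV-miR SOD1 replicate 4 had the highest share of Cnp and the lowest of Mbp and Mal.

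AAV-miR SOD1 against AAV-miR ctrl asks what the microRNA adds beyond injection and vector. Estimates for the 7 myelin genes were all negative, with a median log2 fold change of -0.62 beside -0.04 over all 17403 genes, but the replicate spread covered 0 for each of them. The log2 fold change was -0.78 ± 0.45 (SE) for Mog, with an edgeR quasi-likelihood adjusted p of 0.435. Mag followed at -0.73 ± 0.36 (SE, edgeR adjusted p = 0.372), with a 95% interval from -1.52 to 0.05. For Mobp the estimate was -0.67 ± 0.49 (SE, edgeR adjusted p = 0.548) and for Mbp -0.62 ± 0.42 (SE, edgeR adjusted p = 0.51). Mal (-0.39 ± 0.35), Cldn11 (-0.31 ± 0.50) and Cnp (-0.13 ± 0.32, SE in each case) lay nearer to 0, with edgeR adjusted p-values of 0.642, 0.815 and 0.89. In bulk captures like these, fewer cells of a type and less RNA per cell cannot be told apart.

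Of the 7 genes, 0 passed an adjusted p of 0.05 in edgeR and 0 an unadjusted p of 0.05, where 0% and 14.5% of all genes did, and 0 had groups that did not overlap in the lower direction, against 2.46%. Negative estimates were found for 53.7% of all genes. DESeq2 called 0 of the 7, beside 1.03% of all genes, and limma-voom with quality weights called 0 of the 7, beside 0%. The 7 estimates stayed negative under TMM, RLE, upper quartile and total-count scaling, which moved the median of all genes by at most 0.06 on the log2 scale. Without AAV-miR SOD1 replicate 2, AAV-miR ctrl replicate 5 or AAV-miR ctrl replicate 6, respectively 1, 3 and 2 of the 7 had an unadjusted p under 0.05, beside 11.4%, 9.3% and 9.23% of all genes, and 0 an adjusted one. With the libraries of contradicting header exchanged or left out, 0 of the 7 passed either threshold in this and the other 3 comparisons over all numbers. Among the 7, only the estimate of Cnp turned positive when 1 library was left out, at 0.02 without AAV-miR SOD1 replicate 3 and 0.16 without AAV-miR ctrl replicate 1.

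Against Non-injected littermates, which differ from AAV-miR SOD1 by injection and vector as well, the 7 estimates were again negative but smaller, with a median of -0.27 beside -0.09 over all genes. They ran from -0.45 ± 0.44 (SE) for Mbp to -0.01 ± 0.52 (SE) for Cldn11, and the smallest edgeR adjusted p was 0.55. Mal was at -0.42 ± 0.37, Mag at -0.38 ± 0.38, Mog at -0.27 ± 0.47, Mobp at -0.16 ± 0.51 and Cnp at -0.10 ± 0.34 (log2 fold change with SE). In edgeR 0 of 7 passed the adjusted threshold (0% of all genes), 0 of 7 an unadjusted p of 0.05 (20.9%), and 0 of 7 had AAV-miR SOD1 libraries all lower (5.81%). Negative estimates made up 55.1% of all genes. DESeq2 called 0 of the 7 and 5.89% of all genes, limma-voom 0 of the 7 and 0%. The estimate of Cldn11 turned positive under each of the other scalings, up to 0.11 with total counts. This comparison and the previous one use the same 4 AAV-miR SOD1 libraries, so their shared sign is not independent.

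AAV-miR ctrl against Non-injected concerns injection and control vector. Here 6 of the 7 estimates were positive, with a median of 0.30 beside -0.01 over all genes, and each 95% interval contained 0. Mog was at 0.51 ± 0.45, Mobp at 0.50 ± 0.49, Mag at 0.35 ± 0.36, Cldn11 at 0.30 ± 0.50, Mbp at 0.18 ± 0.42, Cnp at 0.03 ± 0.32 and Mal at -0.03 ± 0.35 (log2 fold change with SE), and the edgeR adjusted p was 1 for all of them. In edgeR 0 of 7 passed the adjusted threshold (0% of all genes), 0 of 7 an unadjusted p of 0.05 (3.61%), and 0 of 7 had AAV-miR ctrl libraries all higher (0.299%). Below 0 lay 52% of all genes. DESeq2 called 0 of the 7 and 0.0115% of all genes, limma-voom 0 of the 7 and 0%.

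With both control groups averaged, the AAV-miR SOD1 estimates ran from -0.56 ± 0.33 (SE, edgeR adjusted p = 0.346) for Mag to -0.11 ± 0.29 (SE, edgeR adjusted p = 0.858) for Cnp, with a median of -0.41 beside -0.06 over all genes. Mbp was at -0.54 ± 0.39, Mog at -0.53 ± 0.41, Mobp at -0.41 ± 0.44, Mal at -0.40 ± 0.32 and Cldn11 at -0.16 ± 0.45 (log2 fold change with SE). In edgeR 0 of 7 passed the adjusted threshold (0% of all genes), 0 of 7 an unadjusted p of 0.05 (22.2%), and 0 of 7 had AAV-miR SOD1 libraries all lower (1.23%). Negative estimates made up 54.2% of all genes. DESeq2 called 0 of the 7 and 8.74% of all genes, and limma-voom 0 of the 7 and 8.4%.

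Since libraries numbered 5 and 6 were all controls, the comparisons were repeated on libraries numbered 1 to 4, with 4 AAV-miR SOD1, 3 AAV-miR ctrl and 2 Non-injected libraries and 18274 genes tested. There Mbp, Mag, Mog and Mobp were lower in every AAV-miR SOD1 library than in every AAV-miR ctrl library, 4 of 7 genes beside 4.26% of all genes. These 4 genes varied together, with pairwise r of 0.86 to 0.92 over all 13 libraries, so they do not count as independent observations. Leaving out numbers 5 and 6 also removed the AAV-miR ctrl libraries lowest in the 7 genes, with sums of 974 and 1186 CPM. The log2 fold change was -1.25 ± 0.33 (SE) for Mog, -1.14 ± 0.33 for Mag, -1.13 ± 0.45 for Mobp and -1.06 ± 0.36 for Mbp. The same 4 genes had an unadjusted p under 0.05 in edgeR, beside 4.88% of all genes in either direction and 2.43% in the lower direction. Of the 7, 0 passed the adjusted threshold (0% of all genes), the edgeR adjusted p being 0.894 in all cases. Mal, Cldn11 and Cnp were at -0.69 ± 0.38, -0.69 ± 0.41 and -0.49 ± 0.28 (SE), and their groups overlapped.

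The separation depended on the libraries with contradicting headers. With both exchanged, 0 of the 7 genes had groups that did not overlap (4.64% of all genes), and Mbp, Mag and Mog kept an unadjusted p under 0.05 in edgeR (9.35% of all genes), at a median log2 fold change of -0.98. With both left out, which leaves 2 AAV-miR ctrl libraries, 6 of 7 genes did not overlap (6.27% of all genes), Cldn11 being the exception, and Mbp, Mag, Mog and Mobp had an unadjusted p under 0.05 (3.22%). In neither case did any of the 7 pass the adjusted threshold, with smallest edgeR adjusted p-values of 0.53 and 1.

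In the same libraries AAV-miR ctrl lay above Non-injected without overlap for 4 of 7 genes, beside 9.06% of all genes, with 0 of 7 at an unadjusted p under 0.05 (5.07%). AAV-miR SOD1 against Non-injected gave 0 of 7 without overlap (11.7% of all genes lower) and 0 of 7 at an unadjusted p under 0.05 (15.7%). Against both control groups 0 of 7 did not overlap (2.13% lower), while 3 of 7 had an unadjusted p under 0.05 (14.2%). None of the 7 passed the adjusted threshold in edgeR in these 3 comparisons (0% of all genes in each). These counts also moved with the libraries of contradicting header. With both exchanged, AAV-miR ctrl lay above Non-injected without overlap for 0 of 7 genes (11.6% of all genes). AAV-miR SOD1 lay below Non-injected without overlap for Mbp and Mog (12.6%) and below both control groups for 0 of 7 (2.13%). An unadjusted p under 0.05 was then found for 0 of 7 between the control groups (5.07%), 0 of 7 against Non-injected (8.61%), and Mbp, Mag and Mog against both (11.8%).

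With both left out, a single Non-injected library remained, which the fit takes to vary like the other groups. AAV-miR ctrl was then above it for 5 of 7 genes (32.3% of all genes), AAV-miR SOD1 below it for 4 of 7 (21.3%), and AAV-miR SOD1 below both control groups for 4 of 7 (3.18%). An unadjusted p under 0.05 was found for 0 of 7 between the control groups (4.28%), 0 of 7 against Non-injected (5.68%), and Mog alone against both (5.8%). After adjustment 0 of 7 passed in edgeR in each of these fits.

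**Figure D3:**
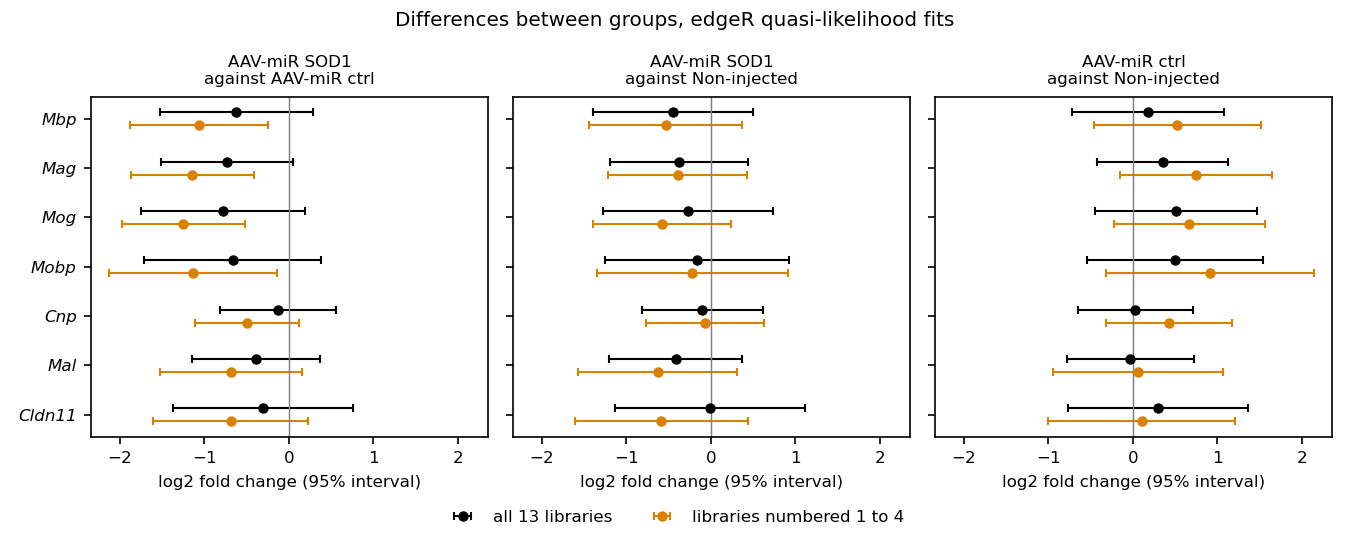
Log2 fold change with its 95% interval for each of the 7 genes in 3 comparisons, from edgeR fits on all 13 libraries (black) and on libraries numbered 1 to 4 (orange). In the fit on all libraries each interval contains 0, and in libraries numbered 1 to 4 the intervals of Mbp, Mag, Mog and Mobp lie below 0 in the panel of AAV-miR SOD1 against AAV-miR ctrl and contain 0 in the panels of each group against Non-injected.

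The 7 transcripts varied together from library to library. Across the 13 libraries Pearson's r of log2 CPM between pairs of them ran from 0.43, for Cnp with Cldn11, to 0.92, for Mog with Mobp, with a median of 0.75 over 21 pairs. With group means subtracted the range was 0.45 to 0.91 and the median 0.79. Against the mean of the other 6, r was 0.96 for Mog, 0.95 for Mbp, 0.92 for Mobp, 0.90 for Mag, 0.83 for Mal, 0.77 for Cldn11 and 0.71 for Cnp. These correlations describe 13 libraries that share depth, capture and amplification differences.

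Of the cell type lists compared here, astrocyte markers and precursor genes followed the 7 genes most closely. The mean level of 10 astrocyte markers correlated with that of the 7 genes at r = 0.80, precursor genes at 0.74, microglia markers at 0.25, 8 erythroid markers at 0.19, Schwann cell genes at 0.06 and endothelial markers at 0.01, whereas motoneuron markers were at -0.21. With group means subtracted, r was 0.80 for astrocyte markers, 0.75 for precursor genes, 0.63 for erythroid markers, 0.52 for microglia markers, 0.06 for Schwann cell genes, 0.06 for endothelial markers and -0.52 for motoneuron markers. AAV-miR ctrl replicates 1, 3 and 4, high in myelin transcripts, had summed motoneuron markers of 2111, 2506 and 2403 CPM, while replicates 5 and 6, low in myelin transcripts, had 4764 and 4238 CPM. Within AAV-miR SOD1 the order differed. Replicate 2 was highest in both, at 2360 CPM for the 7 genes and 2625 CPM for motoneuron markers. Among Non-injected libraries, replicate 2 had the highest sum of the 7 genes (2438 CPM) and the lowest of motoneuron markers (2352 CPM). Replicate 6, lowest in the 7 genes (1559 CPM), had 3862 CPM of motoneuron markers, below replicate 3 at 5557 CPM. Between groups, all 10 motoneuron markers had negative estimates in AAV-miR SOD1 against both control groups, beside 54.2% of all genes. Of them 9 had an unadjusted edgeR p under 0.05, beside 12.1% of all genes in the lower direction, and 0 passed after adjustment (0%). Their summed level was 1445 to 2625 CPM in AAV-miR SOD1, 2111 to 4764 in AAV-miR ctrl and 2352 to 5557 in Non-injected libraries. AAV-miR ctrl replicates 1, 3 and 4 and Non-injected replicate 2 lay inside the AAV-miR SOD1 range, and the other controls above it. All 8 erythroid markers were higher at an unadjusted edgeR p under 0.05 against AAV-miR ctrl (5.99% of all genes) and Non-injected (9.36%), with 0 after adjustment (0%). They summed to 21085 to 47681, 3585 to 28303 and 5596 to 20363 CPM in AAV-miR SOD1, AAV-miR ctrl and Non-injected libraries. Astrocyte markers summed to 873 to 1203, 1215 to 1653 and 955 to 1720 CPM, and microglia markers to 918 to 1213, 541 to 1462 and 323 to 912 CPM. The part of these differences in the myelin estimates was not tested.

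Other genes of the oligodendrocyte lineage were taken from 5 lists of 62 genes, of which 61 were tested. Followed across libraries, 29 of them correlated with the mean of the 7 genes above the 95th percentile of other tested genes, an r of 0.48. Among other structural myelin genes this held for 11 of 14, with r = 0.82 for Plekhb1. Omg, a glycoprotein also made by neurons, was not among them, at r = -0.04. Of other mature oligodendrocyte genes 9 of 18 lay above that level, of transcription factors 4 of 10 and of precursor genes 4 of 9. Of lipid synthesis genes only 1 of 10 did, Ugt8a, which makes galactosylceramide, and it is named because of that count.

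Outside these lists, the 10 genes whose pattern was most like the mean of the 7, among 17335, began with Gfap, the intermediate filament of astrocytes, at r = 0.92 (0.92 within groups). Cmtm5 followed at 0.90, the membrane glycoprotein gene Gpm6b at 0.87, Spred1 at 0.86, the pseudogene Rps3a3 at 0.85, Efnb3 at 0.85, Gm37490 at 0.84, Gm16702 at 0.83 and the mitochondrial carrier gene Slc25a18 at 0.83. Rps3a3, Gm37490 and Gm16702 averaged 0.33, 0.22 and 0.26 CPM, near the floor. Among libraries numbered 1 to 4, 4 of these 10 were again in the top 10. Gfap ranged from 20.4 to 271 CPM over the 13 libraries, and its log2 fold change between AAV-miR SOD1 and AAV-miR ctrl was -0.96 ± 0.63 (SE, edgeR adjusted p = 0.496).

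**Figure D4:**
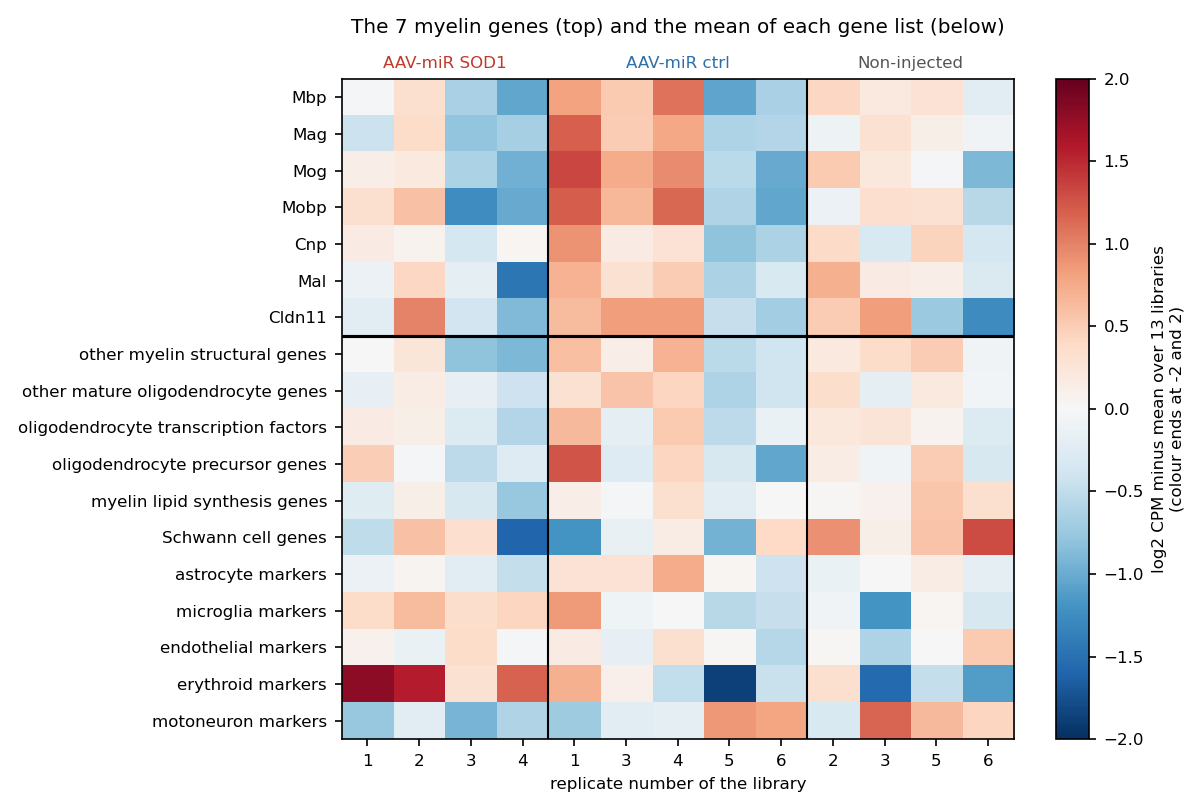
Log2 CPM minus the mean over 13 libraries for the 7 myelin genes (above the line) and the mean of the same for each gene list (below), by library within group. All 7 genes are above their means in AAV-miR ctrl replicates 1, 3 and 4 and below them in replicates 5 and 6. The erythroid row is above its mean in all 4 AAV-miR SOD1 libraries, in AAV-miR ctrl replicates 1 and 3 and in Non-injected replicate 2. The motoneuron row is below its own in all 4 AAV-miR SOD1 libraries, in AAV-miR ctrl replicates 1, 3 and 4 and in Non-injected replicate 2.

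Group differences in the 61 other lineage genes were not past the adjusted threshold in edgeR, with 0 calls in each of the 4 comparisons. At an unadjusted p under 0.05, AAV-miR SOD1 against AAV-miR ctrl gave 1 higher and 9 lower genes (5.99% and 8.54% of all genes), and against Non-injected 3 higher and 8 lower (9.36% and 11.5%). AAV-miR ctrl against Non-injected gave 0 higher and 3 lower (1.38% and 2.24%), and AAV-miR SOD1 against both control groups 2 higher and 9 lower (10.2% and 12.1%). Among structural genes Plekhb1 was at -0.52 ± 0.38 (SE, edgeR adjusted p = 0.541) against AAV-miR ctrl. Of the most abundant transcription factor genes, Tcf7l2 was at 0.39 ± 0.35, Olig1 at 0.28 ± 0.43 and Sox8 at -0.40 ± 0.51, and of precursor genes Enpp6 was at 0.12 ± 0.47, Pdgfra at -0.18 ± 0.33 and Cspg4 at 0.07 ± 0.28 (log2 fold change with SE against AAV-miR ctrl). Schwann cells also express Mbp, Mag and Mal, and genes typical of them had 5 positive and 4 negative estimates there, with Pmp22 at -0.40 ± 0.32 and Prx at 0.11 ± 0.53 (SE).

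Larger group differences relative to their errors were estimated for a few lineage genes. Hmgcs1 and Sqle, enzymes of cholesterol synthesis that are active in neurons as well as in glia, were at 89.0 ± 19.6 and 47.2 ± 10.3 CPM (SD, n = 4) in AAV-miR SOD1, against 130 ± 14.97 and 88.3 ± 18.5 (SD, n = 5) in AAV-miR ctrl and 141 ± 9.80 and 87.4 ± 15.5 (SD, n = 4) in Non-injected libraries. All 4 AAV-miR SOD1 libraries lay below all 9 controls for both genes, as they did for 1.23% of all genes. Against both control groups their log2 fold changes were -0.61 ± 0.16 and -0.90 ± 0.19 (SE), with Omg at -1.15 ± 0.30 and Sept4 at -0.83 ± 0.22, each at an edgeR adjusted p of 0.096. No gene tested had a smaller adjusted p in that comparison. Car2, a carbonic anhydrase of oligodendrocytes and of red cells, was at 1570 ± 596 CPM (SD, n = 4) against 611 ± 191 (SD, n = 5) and 519 ± 238 (SD, n = 4). Its log2 fold change against both control groups was 1.48 ± 0.32 (SE, edgeR adjusted p = 0.096). The erythroid markers moved the same way as Car2, with a median log2 fold change of 1.64, and motoneuron markers the same way as Omg, Sept4, Hmgcs1 and Sqle, with a median of -1.02, and their part was not tested. Sqle, Sept4 and Qdpr, like Hmgcs1, Omg and Car2, were called by DESeq2 and by limma-voom against both control groups. These 6 of 61 genes stand beside 8.74% of all genes called by DESeq2 and 8.4% by limma-voom. Sqle, Sept4 and Qdpr are named here after their values had been seen. In edgeR, leaving out AAV-miR ctrl replicate 1 gave 5 calls among the 61 (Sept4, Sqle, Car2, Omg and Hmgcs1), beside 9.84% of all genes, and leaving out AAV-miR SOD1 replicate 3 gave 1 (Car2), beside 0.679%.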

How the data were processed

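RNA from 500 laser-captured motoneurons per mouse was amplified with the SMARTer Ultra Low kit and made into Nextera XT libraries, per the labels' protocols. The authors deposited raw read counts per Ensembl gene, and the submitters' processing notes name cutadapt 1.8, STAR 2.5.2b, HTSeq 0.6.1 and the build GRCm38. The annotation release and strand setting are not given in the sources used here. The 5 summary rows of each table were left out, and 48349 of 48709 identifiers had a GENCODE symbol. Groups followed the sample titles.

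Counts were scaled by TMM, filtered with filterByExpr (minimum count 10, total 15) and tested with edgeR 4.0.16 (R 4.3.3), a quasi-likelihood fit over all 13 libraries, with Benjamini-Hochberg adjustment over all genes tested and a threshold of 0.05. Log2 CPM used a prior count of 2. DESeq2 1.42.0, limma 3.58.1 (voom), other scalings, filters and sample sets were alternatives, and the main test was tested on simulated data.

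All 7 genes were named, with the 3 most abundant genes of each other list and the 10 of most similar pattern, except some that are not reported here. Members and lists were chosen with earlier results of these data known.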

Additional observations from a re-analysis of the deposited data

How the results depend on the processing

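Of 749 log2 fold changes of the 7 genes under the alternatives run, 702 kept their sign and side of the threshold and 47 turned sign, 34 of them for Cldn11 or Cnp and 23 in AAV-miR SOD1 against Non-injected. The smallest adjusted p was 0.225, and 0 of the 7 genes were called under any alternative run. For Cldn11 in AAV-miR SOD1 against Non-injected the value was 0.0117 with RLE factors, 0.0039 with upper quartile scaling, 0.113 with library totals, 0.013 without a filter, 0.0088 in DESeq2, 0.377 in limma-voom, 0.0384 with only the groups compared and 0.426 without both libraries whose headers contradict labels. Without both, Mobp in that comparison was 0.0325 (0.0479 among libraries numbered 1 to 4), Cnp in AAV-miR ctrl against Non-injected -0.0644 and Cldn11 against both control groups 0.152. With them exchanged, Cnp in AAV-miR ctrl against Non-injected was -0.159. Mal there was 0.0757 in limma-voom and 0.0572 in libraries numbered 1 to 4. The cause of these changes was not tested.

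Leaving out 1 library at a time gave these ranges. Against AAV-miR ctrl, Cnp ran from -0.290 to 0.155. Against Non-injected, AAV-miR SOD1 estimates ran from -0.529 to 0.364 for Cldn11, -0.223 to 0.0924 for Cnp, -0.476 to 0.145 for Mobp and -0.487 to 0.0111 for Mog. In AAV-miR ctrl against Non-injected they ran from -0.253 to 0.194 for Cnp, -0.190 to 0.202 for Mal and -0.0799 to 0.387 for Mbp. Against both control groups they ran from -0.684 to 0.0481 for Cldn11 and -0.195 to 0.0449 for Cnp. Calls among the 61 other lineage genes were 2, 5 and 6 in DESeq2 (against AAV-miR ctrl, Non-injected and both), 6 in limma-voom against both, 5 there at an adjusted p under 0.1, where 1.03%, 5.89%, 8.74%, 8.4% and 3.34% of all genes were called, and 0 to 5 there with 1 library left out.

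What the replicate numbers stand for is not stated in the sources used here. Same-numbered libraries of AAV-miR SOD1 and AAV-miR ctrl correlated at 0.24, 0.24 and 0.0015 after subtracting group means. Same-numbered pairs with a Non-injected library ran from -0.19 to 0.19. Differently numbered pairs between groups ran from -0.38 to 0.34, a range that includes all of these values. AAV-miR ctrl and Non-injected replicates 5 were alike in depth (37334069 and 37414222 counts), replicates 6 less so (29682646 and 35783335). Whether the numbers mark a batch was not tested. With the replicate block, 6, 3, 0 and 6 of the 7 genes had an unadjusted p under 0.05 (in order, AAV-miR SOD1 against AAV-miR ctrl, the same against Non-injected, the control groups against each other, and AAV-miR SOD1 against both), where 8.82%, 8.28%, 2.67% and 11.1% of all genes did, and 0 were called after adjustment. In AAV-miR ctrl against Non-injected the block turned Mbp to -0.133, Cnp to -0.248 and Mal to 0.0375.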

Other observations

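Schwann cell genes, which make or regulate peripheral myelin, did not vary with the 7 genes across libraries (r = 0.06, n = 13, and 0.06 within groups). All 9 had negative estimates against Non-injected both in AAV-miR SOD1 (median log2 fold change -0.73) and in AAV-miR ctrl (median -0.85), comparisons that share the Non-injected libraries. Negative estimates made up 55.1% and 52% of all genes there. Of the 9, respectively 1 and 2 had an unadjusted edgeR p under 0.05, beside 11.5% and 2.24% of all genes in the lower direction. After adjustment 0 passed in either (0% of all genes). Pmp22, a structural protein of compact peripheral myelin, averaged 330.4 ± 152 CPM (SD, n = 4) in AAV-miR SOD1, 436 ± 132 (SD, n = 5) in AAV-miR ctrl and 611 ± 42.3 (SD, n = 4) in Non-injected libraries. Its log2 fold change in AAV-miR SOD1 against Non-injected was -0.89 ± 0.33 (SE, edgeR adjusted p = 0.164). Motoneuron markers had a median of -1.09 in that comparison, and their part was not tested. Per kb of exon, Mbp lay above Pmp22 in only 5 of 13 libraries. Which cells gave the Pmp22 counts was not tested.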
